A study of Homo sapiens with 12 samples.

Results

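The genes of the translation initiation, elongation and termination factors were followed in an EU-seq data set of U2OS-MycER cells. They were chosen from a list of 47 gene symbols, and 46 of them were found by Entrez identifier among the 23434 rows of the table of counts. EIF4A1, the gene of a helicase of the cap-binding complex, was not analysed here. In EU-seq, cells take up 5-ethynyl-uridine (EU) for a short pulse, and the RNA made during the pulse is tagged, captured and sequenced. The counts thus follow newly made RNA and not the whole amount of mature mRNA or of protein. Decay of RNA within the pulse was not measured. U2OS is a human osteosarcoma line, and the U2OS-MycER cells hold a hormone-controlled Myc (MycER) that is switched on by adding 4-hydroxytamoxifen (OHT).

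Each of the 4 groups held 3 libraries. The shNT libraries came from U2OS-MycER cells with a non-targeting shRNA and no OHT, and the shNT with OHT libraries came from the same cells with MycER activated. The libraries labelled shCDK12 and shCDK12 with OHT are described as coming from U2OS-MycER cells with an shRNA against CDK12, a kinase of the RNA polymerase II tail that supports transcription elongation, without and with OHT. The MycER transgene was thus carried by the controls too. OHT was given at 300 nM for 40 h, and the shRNAs were switched on with doxycycline at 1 µg/mL. Cells were arrested with nocodazole at 100 ng/mL for 8 h, shaken off in mitosis, released for 12 h and given 0.5 mM EU for the last 2 h. The values therefore describe a synchronized population of a single cell line. The labels do not say whether the 3 libraries of a group came from separate cultures, so that p-values measure only the spread between these libraries, which may be technical. As the RNA came from whole populations, fewer cells making an RNA and less of it made per cell cannot be told apart.

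Translation starts when the eIF4F complex binds the mRNA cap, eIF2 brings the initiator tRNA and eIF3 holds the parts together on the small ribosomal subunit. eIF2B recharges eIF2 with GTP after each round, and phosphorylation of eIF2 blocks that step in the stress response. The eEF1 and eEF2 factors then carry the ribosome along the mRNA, and the release factors end the chain at the stop codon. Myc is known for driving ribosome production and protein synthesis, and EIF4E is among its classical targets. Myc binds with its partner MAX to the DNA letters CACGTG, the E-box.

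Promoter windows of RefSeq (GRCh38.p14, 250 bases before to 50 after the start of transcription) were at hand for 38 of the 46 genes, 54 windows in all. No window was used for EIF3A, EIF3E, EIF3G, EIF3H, EIF3L, EIF2S2, EIF4EBP1 and EEF1D. CACGTG, which reads the same on both strands, was found in 8 of the 38 genes (21.1%), namely EIF4E, EIF4G1, EIF4B, EIF4H, EEF2K, EIF2B3, EIF3F and EIF3K. By window, 14.8% of those of the factor genes and 7.26% of all 35116 windows held it. The 250 bases before the start are shown for 4 of these genes, 3 of the cap-binding machinery and the kinase of eEF2, since Myc is the factor that was switched on and CACGTG is its binding sequence. They run 5′ to 3′ on the strand of the gene, with CACGTG in capitals. Coordinates are those of GRCh38.p14, and the first base of the transcript follows directly after the last base printed. EIF4E lies on the minus strand (chr4:98929134-98929383), and EIF4G1 (chr3:184314356-184314605), EEF2K (chr16:22206028-22206277) and EIF4B (chr12:53006206-53006455) lie on the plus strand.
EIF4E: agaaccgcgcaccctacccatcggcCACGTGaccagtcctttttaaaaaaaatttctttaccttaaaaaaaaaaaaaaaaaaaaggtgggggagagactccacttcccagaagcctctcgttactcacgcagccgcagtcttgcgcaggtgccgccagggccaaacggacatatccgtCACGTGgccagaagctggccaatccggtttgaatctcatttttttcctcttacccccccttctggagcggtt
EIF4G1: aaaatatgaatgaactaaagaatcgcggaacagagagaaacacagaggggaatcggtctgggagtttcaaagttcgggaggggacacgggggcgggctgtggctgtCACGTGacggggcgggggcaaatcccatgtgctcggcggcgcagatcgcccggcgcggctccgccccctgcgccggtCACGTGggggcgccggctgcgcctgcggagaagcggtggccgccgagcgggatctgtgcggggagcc
EEF2K: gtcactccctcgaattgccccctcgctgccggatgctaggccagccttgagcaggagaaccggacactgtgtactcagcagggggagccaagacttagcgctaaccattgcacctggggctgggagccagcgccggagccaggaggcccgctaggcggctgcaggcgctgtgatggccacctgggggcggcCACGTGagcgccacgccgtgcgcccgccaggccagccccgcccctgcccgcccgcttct
EIF4B: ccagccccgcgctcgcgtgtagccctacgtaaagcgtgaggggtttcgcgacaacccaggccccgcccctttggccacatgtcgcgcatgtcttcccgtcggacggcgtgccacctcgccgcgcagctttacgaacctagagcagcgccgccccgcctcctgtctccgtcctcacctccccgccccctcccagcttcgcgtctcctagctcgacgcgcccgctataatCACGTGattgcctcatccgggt
The motif began 225 and 72 bases before the start of EIF4E, 144 and 67 bases before that of EIF4G1, 59 bases before that of EEF2K and 22 bases before that of EIF4B. Of the other letters searched on both strands, GGGCGG (the GC box) stood in 29 of the 38 genes and in 68.5% of the windows of factor genes against 45% of all windows. TATAAA stood in EEF2, EIF4A2 and GSPT1, in 5.56% of the windows of factor genes against 11.5% of all windows. A start made of C and at least 4 further pyrimidines, as in the 5′ terminal oligopyrimidine (TOP) tracts of the mRNAs of the translation machinery, stood in 11 of the 38 genes and in 20.4% of their windows against 4.07% of all windows. These matches are letters in a window, and no binding was measured here.

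Libraries summed to between 1251695 and 10447836 counts, an 8.35-fold range, and the median of each group was lower for shNT with and without OHT than for the libraries labelled shCDK12. CDK12, the gene the shRNA is aimed at, stood at 304 ± 17.4 CPM (counts scaled to library size, mean ± SD, n = 3) in shNT against 289 ± 10.9 CPM under the shCDK12 label, and the difference did not pass the test (edgeR adjusted p = 0.727). With OHT it stood at 397 ± 38.7 CPM in shNT and 1.86-fold lower, at 214 ± 5.09 CPM, in the libraries labelled shCDK12 (edgeR adjusted p = 9.23e-05). The shCDK12 groups are therefore named by their labels throughout. The direction of every change between or against these groups rests on the labels, and whether the labels are right was not tested. MYC, whose counts can hold the transgene, stood at 2093 ± 112 CPM in shNT and 1967 ± 248 CPM with OHT. Under the shCDK12 label it stood at 1124 ± 89.8 CPM without OHT and 2062 ± 53.5 CPM with it. All 5 markers of mesenchymal cells (VIM, SPARC, COL1A1, FN1 and RUNX2) were detected in every group. Their summed level was 1497 to 1576 CPM in shNT and 998 to 1099 CPM with OHT, and under the shCDK12 label it was 400 to 411 CPM without OHT and 563 to 579 CPM with it. Without OHT all 5 were lower in the libraries labelled shCDK12 than in shNT, and with OHT in both 3 of the 5 were. Of the 5, 4 fell with OHT in shNT and rose with OHT in the libraries labelled shCDK12. The 6 markers of other cell types (EPCAM, CDH1, PTPRC, CD3E, ALB and GFAP) summed to 11.4 to 20.7 CPM in all libraries, with PTPRC and ALB at 0 in shNT with OHT and ALB at 0 in the libraries labelled shCDK12 with OHT. Among them EPCAM stood at 0.82 ± 0.884 CPM in shNT and 1.58 ± 0.965 CPM with OHT. Under the shCDK12 label it stood at 8.03 ± 1.45 CPM without OHT and fell to 2.64 ± 0.255 CPM with it (log2 -1.64, edgeR adjusted p = 3.64e-05). The part of these shifts in the results on the factor genes was not tested.

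In the shNT cells, MycER activation was followed by a higher level of part of the factor genes, relative to the newly made RNA of all genes. Of the 44 factor genes tested, 14 rose (31.8%) and 0 fell with OHT, while 17.9% of all 9994 genes tested were called, with 9.42% higher and 8.53% lower (edgeR's quasi-likelihood test, adjusted p under 0.05). At an unadjusted p under 0.05 the count was 21 higher and 1 lower, the latter being EIF4EBP2, against 15.9% and 16.7% of all genes. DESeq2 called 16 higher and 0 lower, against 10.7% and 7.94% of all genes. The log2 fold change was above 0 for 38 of the 44 genes, and its median was 0.30 against -0.03 over all genes. The genes that rose were EIF1, EIF6, EIF2B4, EIF3B, EIF3D, EIF3I, EIF4E2, EIF4EBP1, EIF4G1, EEF1B2, EEF1G, EEF2, EEF2K and EIF5A. This count moved with the libraries used. It was 6, 5 and 5 without shNT replicate 1, 2 or 3 and 9 without shNT with OHT replicate 3, while it was 20 and 16 without shNT with OHT replicate 1 or 2. The share of all genes called higher moved with it, to 4.56, 3.84, 4.72 and 6.71% in the former and to 12.8 and 12.6% in the latter.

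Taken by their labels, the shCDK12 libraries with OHT differed from those without it by a change of the opposite sign. An exchange of these 2 labels would turn the sign, and the labels were not tested. With OHT, 19 of 45 factor genes fell (42.2%) and 2 rose, EIF4G3 and EIF4EBP2, while 49.4% of all 12389 genes tested were called, with 23.7% lower and 25.6% higher. The log2 fold change was below 0 for 38 of the 45 genes, with a median of -0.19 against 0.01 over all genes. These 2 comparisons share no library. Of the 14 genes that rose with OHT in shNT, 13 had a negative log2 fold change in the libraries labelled shCDK12 and 8 of them fell there, namely EEF1B2, EEF2, EEF2K, EIF5A, EIF3B, EIF3D, EIF4EBP1 and EIF4G1. Of the 939 genes of the whole table that rose with OHT in shNT and were tested in both, 92.5% were negative and 76.8% fell there, so that the first share was near the background for the factor genes and the second was below it. Over the 44 factor genes tested in both, the log2 fold changes had a Pearson r of -0.50 across genes, and over the 9952 genes tested in both it was -0.62. The opposite sign was thus shared with the table as a whole, and genes are not independent replicates.

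**Figure D1:**
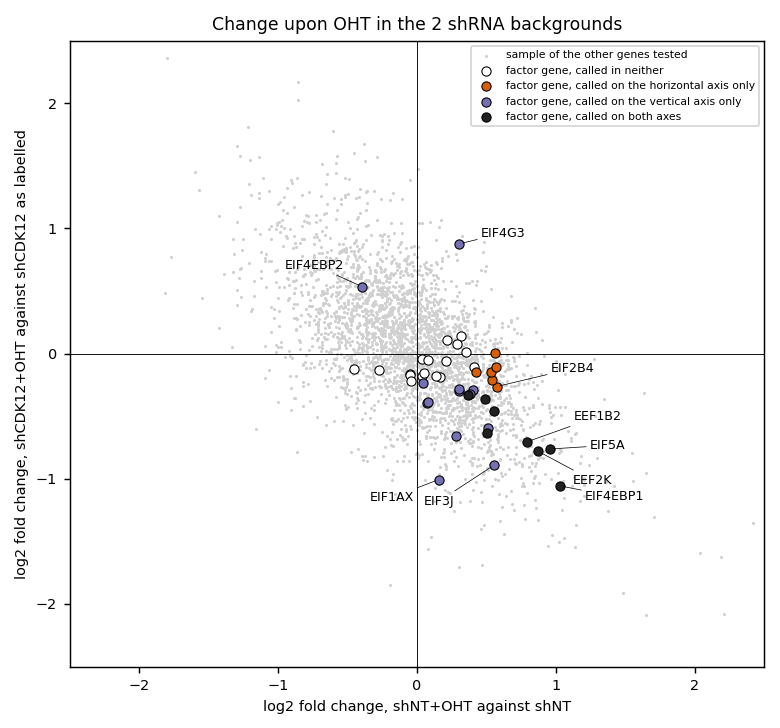
Log2 fold change upon OHT in the shNT libraries (horizontal axis) and in the libraries labelled shCDK12 (vertical axis) for 44 factor genes (large points, coloured by the comparison in which the adjusted p was under 0.05) and for a random sample of the other genes (small grey points). Most factor genes lie at the lower right, with EIF4EBP1 farthest along both axes at 1.03 and -1.06, while EIF4G3 and EIF4EBP2 lie above 0 on the vertical axis.

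The difference between both responses was tested with the interaction term over all 12 libraries, with the groups taken as labelled. It was negative and passed the test for 26 of 45 factor genes (57.8%) and positive for 1, EIF4EBP2, while 46% of all 11299 genes tested were called, with 22.3% negative and 23.8% positive. All 5 genes of start codon selection and subunit joining and 6 of the 7 elongation genes were among the 26, but 1 of the 4 genes that serve the initiator tRNA (the 3 of eIF2 and EIF2A). The calls of EIF5, EIF5B, EIF1AX, EIF2S3 and EEF1D were lost when single libraries were left out, and that of EIF1 with the trend in gene span removed, so that both group counts rest on these settings. The log2 interaction was largest for EIF4EBP1 at -2.12 (SE 0.22, edgeR adjusted p = 2.31e-07), EIF5A at -1.76 and EEF2K at -1.68.

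Between the libraries labelled shCDK12 and shNT without OHT, factor genes moved both ways. Of 45 genes 20 were higher (44.4%) and 11 lower (24.4%), while 62.4% of all 11444 genes tested were called, with 31.6% higher and 30.9% lower. The largest differences were a 3.49-fold rise of EIF1AX and a 3.57-fold fall of EIF4EBP2. With OHT in both groups, 2 factor genes were higher in the libraries labelled shCDK12, EIF4G2 and EIF4B, and 23 of 45 were lower (51.1%), while 46.3% of all 11120 genes tested were called, with 23.3% higher and 23% lower. The median log2 fold change of the factor genes was 0.23 without OHT and -0.34 with OHT, against 0.01 and 0.02 over all genes. These 2 comparisons also share no library. All 11 genes that were lower without OHT were lower with OHT too, and of the 20 genes that were higher without OHT 2 were higher and 5 lower with OHT. Over all genes tested in both, 35.4% of those lower without OHT were lower with it, and of those higher without OHT 35% were higher and 16.1% lower with it. The 5 factor genes that turned were EEF1B2, EEF2, EIF5A, EIF3B and EIF4EBP1. Across the 45 genes r was 0.51, and across the 11000 genes tested in both it was 0.35. Beside these counts, MYC was lower in the libraries labelled shCDK12 without OHT (edgeR adjusted p = 2.25e-10) and did not pass the test with OHT in both (adjusted p = 0.61), and of the 5 mesenchymal markers 5 were lower without OHT and 3 with it, SPARC and RUNX2 not being called. Their part in these counts was not tested.

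**Figure D2:**
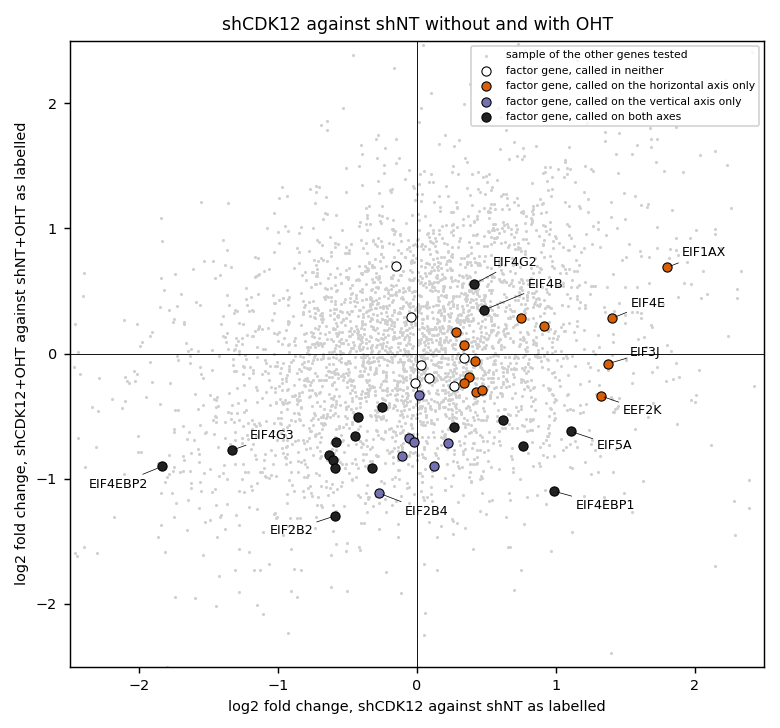
Log2 fold change of the libraries labelled shCDK12 against shNT without OHT (horizontal axis) and with OHT (vertical axis) for 45 factor genes (large points, coloured as above) and for a random sample of the other genes (small grey points, axes limited to 2.5 either way). A group around EIF4G3, EIF4EBP2 and EIF2B2 lies low on both axes, and EIF1AX, EIF4E, EIF3J and EEF2K lie far to the right but near 0 or without a call on the vertical axis.

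**Figure D3:**
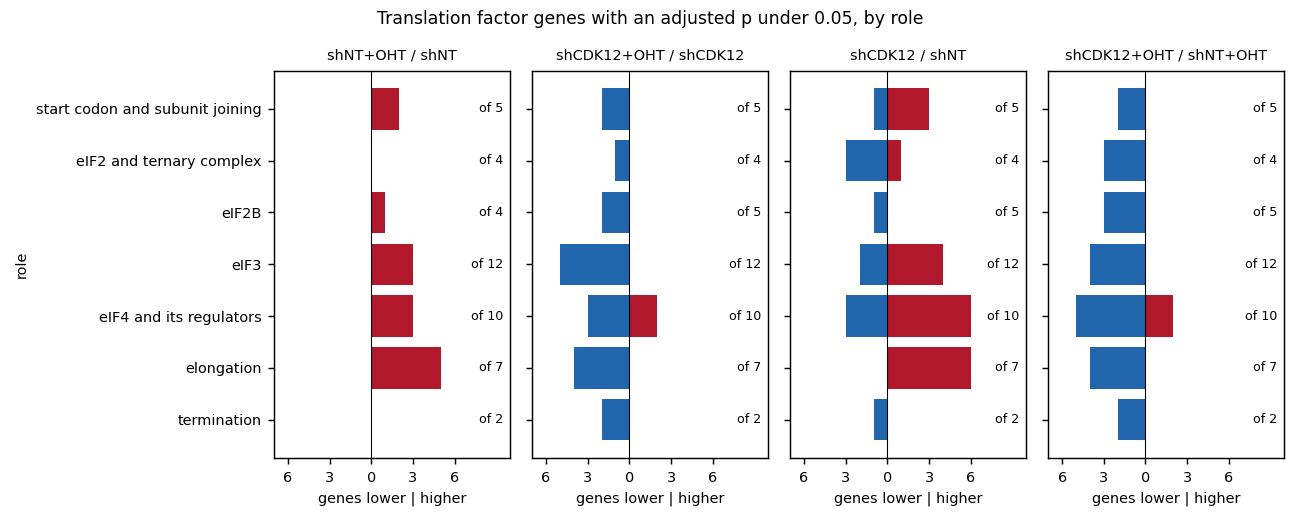
Number of factor genes called higher (red, to the right of 0) or lower (blue, to the left) in each pairwise comparison, by role, with the number tested at the right. Elongation has 5 of 7 genes higher with OHT in shNT and 4 of 7 lower with OHT in the libraries labelled shCDK12. The row of eIF2 and the ternary complex and that of termination are empty in the leftmost panel. Over all genes, 9.42% were higher with OHT in shNT and 23.7% lower with OHT in the libraries labelled shCDK12.

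Among the cap-binding factors, the largest shift between the libraries labelled shCDK12 and shNT without OHT was that of EIF4EBP2. In the other pairwise comparisons it was that of EIF4EBP1, and both genes encode eIF4E-binding proteins. EIF4EBP1 encodes 4E-BP1, which holds eIF4E away from eIF4G until mTOR phosphorylates it. It stood at 29.1, 27.3 and 19.6 CPM in shNT and at 58.0, 46.2 and 51.9 CPM in shNT with OHT. It stood at 52.6, 47.1 and 50.7 CPM in the libraries labelled shCDK12 and at 25.1, 25.3 and 23.0 CPM in those labelled shCDK12 with OHT. The groups did not overlap in any of the 4 pairwise comparisons, and the high level was found with either OHT or the shCDK12 label but not with both. The rise with OHT in shNT was 2.04-fold (log2 1.03, SE 0.21, edgeR adjusted p = 0.00417), and the fall with OHT in the libraries labelled shCDK12 was 2.08-fold (log2 -1.06, SE 0.12, adjusted p = 7.52e-07). With OHT in both, it was 2.14-fold lower in the libraries labelled shCDK12 (log2 -1.10, SE 0.16, adjusted p = 0.000346).

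Its paralog EIF4EBP2 differed from it in direction in the libraries labelled shCDK12, lower than shNT without OHT and rising with OHT. EIF4EBP2 stood at 183, 206 and 156 CPM in shNT and at 162, 122 and 130 CPM with OHT, with overlap between the groups. With the shCDK12 label it stood at 53.0, 52.8 and 43.9 CPM without OHT and at 69.4, 69.0 and 84.7 CPM with OHT. It was thus lower in every library labelled shCDK12 than in every shNT library, and with OHT in both groups it was lower as EIF4EBP1 was. Without OHT the fall was 3.57-fold (log2 -1.83, SE 0.11, edgeR adjusted p = 8.1e-14). With OHT in the libraries labelled shCDK12 it rose 1.45-fold (log2 0.53, SE 0.11, adjusted p = 0.000651), a call that was lost when all libraries were thinned to the smallest total (adjusted p = 0.215).

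The count of EIF4EBP2 relative to that of EIF4EBP1 in the same library, which needs no scaling between libraries, had a geometric mean of 7.19 in shNT, 2.63 in shNT with OHT, and 0.993 without and 3.02 with OHT under the shCDK12 label. The counts are not scaled for gene length, so that only the change of this ratio between groups can be read. The libraries did not overlap with OHT against without in either background or between shCDK12 and shNT without OHT. By the exact two-sided permutation test, each of these had p = 0.1, the smallest that 3 against 3 libraries allow, and an adjusted p of 0.2 over the 20 ratio tests made. No ratio of the 5 pairs compared had an adjusted p below 0.2, and the design cannot give a p under 0.05.

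EIF4E, the gene of the cap-binding protein itself, stood at 44.5, 63.6 and 63.7 CPM in shNT and at 56.7, 94.9 and 95.7 CPM with OHT. These groups overlapped, and the difference did not pass the test (log2 0.51, edgeR adjusted p = 0.113). The libraries labelled shCDK12 gave 128, 166 and 143 CPM, above all shNT libraries, a 2.65-fold rise (log2 1.41, SE 0.13, adjusted p = 3.17e-10). Those labelled shCDK12 with OHT gave 101, 104 and 92.7 CPM, below all libraries labelled shCDK12 without OHT. EIF4E2, whose product binds the cap but not eIF4G, stood at 62.6 ± 3.24 CPM in shNT and 90.3 ± 9.11 CPM with OHT (SD, n = 3), and at 115 ± 3.73 and 106 ± 3.35 CPM in the libraries labelled shCDK12 without and with OHT. It rose in shNT with OHT, as listed above. The ratio of EIF4E2 to EIF4E was 1.11 in shNT, 1.12 with OHT, and 0.793 without and 1.07 with OHT under the shCDK12 label, and the ratio of EIF4EBP1 to EIF4E was 0.443, 0.648, 0.346 and 0.248 in the same order.

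EIF4G1 encodes the main scaffold of eIF4F, which ties the cap-binding protein to the helicase and to eIF3. It stood at 903, 828 and 742 CPM in shNT and at 1205, 945 and 1045 CPM with OHT. Under the shCDK12 label it read 819, 673 and 743 CPM without OHT and 587, 600 and 627 CPM with OHT. Every library with OHT thus lay above those without it in shNT and below them in the libraries labelled shCDK12. EIF4G3, the gene of a second scaffold of this kind, stood at 37.0, 52.1 and 46.1 CPM in shNT and at 70.5, 35.5 and 56.6 CPM with OHT. The libraries labelled shCDK12 gave 16.9, 17.3 and 18.0 CPM, below all others, and those labelled shCDK12 with OHT gave 33.8, 30.9 and 33.6 CPM. The spread within shNT with OHT was thus wide, and within the libraries labelled shCDK12 it was narrow. EIF4G3 was 2.52-fold lower in the libraries labelled shCDK12 than in shNT (log2 -1.33, SE 0.17, edgeR adjusted p = 1.48e-07) and rose 1.84-fold in them with OHT (log2 0.88, SE 0.14, adjusted p = 2.66e-05). The ratio of EIF4G3 to EIF4G1 was 0.0545 in shNT, 0.0494 with OHT, and 0.0235 without and 0.0543 with OHT under the shCDK12 label.

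EIF4G2 encodes a relative of the scaffold that lacks the site for eIF4E and serves cap-independent initiation. It stood at 319, 304 and 287 CPM in shNT and at 191, 285 and 280 CPM with OHT. With the shCDK12 label the values were 388, 399 and 395 CPM without OHT and 369, 366 and 372 CPM with it. All of the latter lay above the shNT with OHT libraries, by 1.47-fold (log2 0.56, SE 0.14, edgeR adjusted p = 0.00832). EIF4B, whose product stimulates the helicase eIF4A, was 1.27-fold higher in the same comparison at 307 ± 11.9 against 241 ± 27.0 CPM (log2 0.35, SE 0.11, adjusted p = 0.0227). This call was lost whichever of the 3 libraries labelled shCDK12 with OHT was left out (adjusted p from 0.0592 to 0.09). EIF4A2, the gene of the helicase paralog, stood at 580, 608 and 534 CPM in shNT and at 455, 647 and 577 CPM with OHT. Among the libraries labelled shCDK12 there were 418, 554 and 440 CPM without OHT and 389, 452 and 404 CPM with OHT. EIF4A2 was among the genes lower in the libraries labelled shCDK12 in both comparisons with shNT, although the libraries overlapped in that without OHT. EIF4H, the gene of another cofactor of the helicase, stood at 304 ± 11.4 CPM in shNT, 352 ± 10.9 CPM with OHT, and 375 ± 24.2 and 369 ± 18.8 CPM in the libraries labelled shCDK12 without and with OHT, and was called higher in the libraries labelled shCDK12 without OHT.

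**Figure D4:**
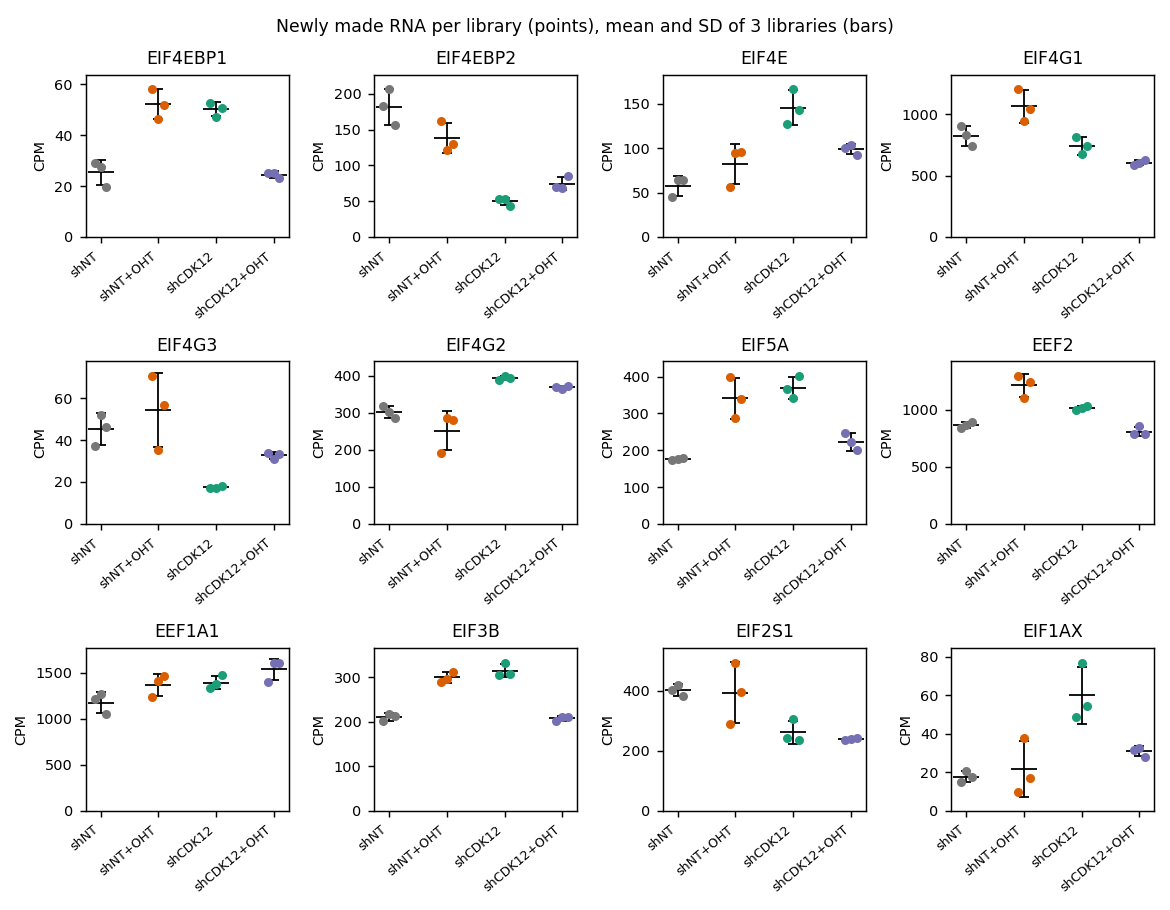
Level of 12 factor genes in each library (points, in CPM with TMM scaling, every vertical axis starting at 0), with the mean and SD of the 3 libraries of a group (bars). EIF4EBP1, EIF3B and EIF5A are high in shNT with OHT and in the libraries labelled shCDK12, EIF4EBP2 is lowest in the libraries labelled shCDK12, and EEF1A1 lies between 1046 and 1605 CPM throughout.

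The eIF2 complex carries the initiator tRNA to the small subunit, and neither its 3 genes nor EIF2A passed the test with OHT in shNT. By edgeR, 0 of these 4 genes were called there, and 1 was higher at an unadjusted p under 0.05. As 17.9% of all genes were called there, 0 of 4 is not set apart from the table as a whole. EIF2S1 encodes the alpha subunit, the target of the stress kinases. It stood at 405, 421 and 384 CPM in shNT and at 291, 493 and 398 CPM with OHT. Under the shCDK12 label it read 244, 306 and 235 CPM without OHT and 236, 238 and 244 CPM with OHT. All 6 libraries labelled shCDK12 thus lay below all 3 shNT libraries without OHT. EIF2S2, the gene of the beta subunit, stood at 157 ± 5.62 CPM in shNT and was 1.55-fold lower at 98.6 ± 5.30 CPM in the libraries labelled shCDK12 (log2 -0.64, SE 0.10, edgeR adjusted p = 2.4e-06). EIF2S3, the gene of the gamma subunit that binds GTP and the tRNA, went the other way, with 68.6 ± 5.63 CPM in shNT against 89.7 ± 3.51 CPM under the shCDK12 label. EIF2A, whose product binds initiator tRNA but is no subunit of eIF2, stood at 79.2 ± 10.9 and 57.0 ± 10.2 CPM in these groups. EIF2S1, EIF2S2 and EIF2A were lower in the libraries labelled shCDK12 both without and with OHT. The ratio of EIF2S2 to EIF2S1 was 0.39, 0.509, 0.379 and 0.466 in shNT, shNT with OHT, shCDK12 and shCDK12 with OHT as labelled.

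Of the genes of eIF2B, the 5-subunit exchange factor of eIF2, EIF2B2 and EIF2B4 differed most. EIF2B2 stood at 70.7, 66.4 and 84.2 CPM in shNT and at 101, 83.3 and 104 CPM with OHT. With the shCDK12 label the values were 50.5, 48.5 and 42.6 CPM without OHT and 39.4, 39.1 and 40.1 CPM with it. With OHT in both, the groups lay far apart, and EIF2B2 was 2.46-fold lower in the libraries labelled shCDK12 (log2 -1.30, SE 0.13, edgeR adjusted p = 4.07e-05). EIF2B4 was 2.17-fold lower in the same comparison (log2 -1.12, SE 0.14, adjusted p = 0.000138). With OHT in shNT EIF2B4 rose 1.49-fold (log2 0.57, SE 0.17, adjusted p = 0.0279), but the call was lost whichever of the 3 shNT libraries was left out (adjusted p from 0.0724 to 0.137), after thinning (0.0627) and with the trend in gene span removed (0.105). EIF2B5, the gene of the catalytic subunit, stood at 128 ± 15.8 CPM in shNT, 157 ± 4.34 CPM with OHT, and 119 ± 5.43 and 99.0 ± 14.3 CPM in the libraries labelled shCDK12 without and with OHT, and was lower with OHT in the latter. EIF2B1 lay between 50.9 and 60.4 CPM in the group means and was called in no comparison. EIF2B3 had 9 to 102 counts per library, was too low to be tested with OHT in shNT and was called in no other comparison.

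eIF3 is the large scaffold on the small subunit, and 12 of its 13 genes could be tested. EIF3C had 0 to 4 counts in every library. It has a near-identical copy, EIF3CL, so that its low counts are uncertain and no level is drawn from them. With OHT in shNT 3 of 12 eIF3 genes rose (25%), EIF3B, EIF3D and EIF3I, against 9.42% of all genes. In the libraries labelled shCDK12 5 of 12 fell (41.7%), EIF3B, EIF3D, EIF3G, EIF3J and EIF3L, against 23.7% of all genes. EIF3B, the gene of a core subunit, stood at 201, 218 and 212 CPM in shNT and at 290, 295 and 312 CPM with OHT. Among the libraries labelled shCDK12 there were 305, 331 and 307 CPM without OHT and 201, 210 and 211 CPM with OHT. As with EIF4EBP1, it was high with OHT or with the shCDK12 label and low with neither or both, and the groups compared in pairs did not overlap. EIF3J encodes a loosely bound subunit at the mRNA channel. It was 2.60-fold higher in the libraries labelled shCDK12 than in shNT, at 171 ± 24.3 against 68.6 ± 6.79 CPM (log2 1.38, SE 0.11, edgeR adjusted p = 4.31e-11). With OHT it fell 1.85-fold in the libraries labelled shCDK12 to 94.9 ± 3.39 CPM (log2 -0.89, SE 0.10, adjusted p = 3.96e-07). EIF3A, the gene of the largest subunit, and EIF3K were the eIF3 genes lower in the libraries labelled shCDK12 without OHT. EIF3A stood at 500 ± 7.25 against 358 ± 8.95 CPM. EIF3K was 1.52-fold lower at 17.0 ± 4.01 against 26.7 ± 6.75 CPM (log2 -0.61, SE 0.22, adjusted p = 0.0191), a call that was lost without shNT replicate 3 or replicate 2 or 3 labelled shCDK12 (adjusted p from 0.0553 to 0.116). EIF3E, EIF3F, EIF3H and EIF3M were called in no pairwise comparison.

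Among the genes of start codon selection and subunit joining, EIF1AX had the largest difference of all factor genes between the libraries labelled shCDK12 and shNT, in the upward direction. It encodes eIF1A, which keeps the small subunit open for scanning together with eIF1. EIF1AX stood at 15.0, 20.7 and 17.5 CPM in shNT and at 9.71, 38.0 and 17.1 CPM with OHT, the widest scatter for its mean of the genes shown by library. Under the shCDK12 label it read 48.6, 76.7 and 54.6 CPM without OHT and 31.8, 32.8 and 27.9 CPM with OHT. The rise in the libraries labelled shCDK12 was 3.49-fold (log2 1.80, SE 0.18, edgeR adjusted p = 1.8e-09), and the fall with OHT in them was 2.01-fold (log2 -1.01, SE 0.14, adjusted p = 1.02e-05). EIF1 was among the genes that rose with OHT in shNT, from 696 ± 56.5 to 937 ± 74.3 CPM, as was EIF6, whose product keeps the large subunit from joining too early, from 120 ± 2.69 to 177 ± 28.6 CPM. EIF5, the gene of the GTPase activator of eIF2, was lower in the libraries labelled shCDK12 by 1.51-fold without OHT (log2 -0.59, SE 0.08, adjusted p = 4.44e-07) and by 1.88-fold with OHT (log2 -0.91, SE 0.11, adjusted p = 0.000125). EIF5B, the gene of the GTPase that joins the subunits, stood at 106 ± 14.4 CPM in shNT and at 175 ± 8.73 CPM in the libraries labelled shCDK12, where it was called higher.

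**Figure D5:**
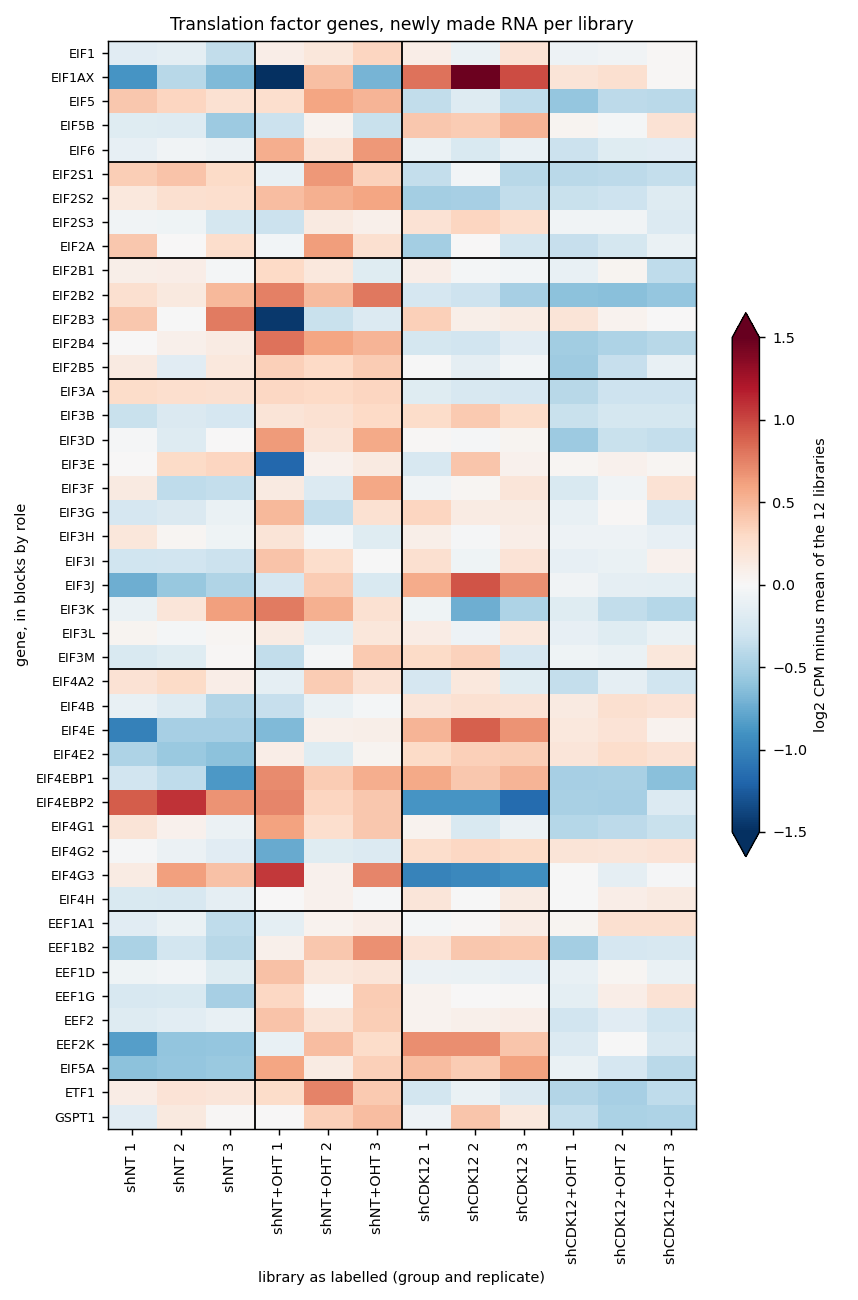
Log2 CPM of 45 factor genes in the 12 libraries, each gene minus its mean over all libraries, in blocks by role from start codon selection (top) to termination (bottom); EIF3C, with 0 to 4 counts, is left out. Blue in shNT and in the rightmost block and red between them marks genes such as EIF5A, EEF1B2 and EIF3B, and the reverse order in the blocks labelled shCDK12 marks EIF4EBP2 and EIF4G3.

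Of the 7 role groups, the elongation genes had the highest share of calls with OHT in shNT, where 5 of 7 rose (71.4%) against 9.42% of all genes. All 7 had a positive log2 fold change. EIF5A encodes the hypusine-bearing factor that helps the ribosome past slow peptide bonds. It stood at 173, 176 and 179 CPM in shNT and at 399, 287 and 338 CPM with OHT. With the shCDK12 label the values were 365, 343 and 401 CPM without OHT and 248, 221 and 199 CPM with it. The shNT libraries were the lowest and closely grouped, and no pair of groups compared overlapped. The rise with OHT in shNT was 1.94-fold (log2 0.96, SE 0.13, edgeR adjusted p = 0.000316), and that in the libraries labelled shCDK12 without OHT was 2.16-fold (log2 1.11, SE 0.09, adjusted p = 2.44e-11). With OHT it fell 1.70-fold in the latter (log2 -0.76, SE 0.09, adjusted p = 8.97e-07).

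EEF2 encodes the translocase that moves the ribosome by a codon. It stood at 843, 863 and 891 CPM in shNT and at 1295, 1105 and 1245 CPM with OHT. Among the libraries labelled shCDK12 there were 997, 1019 and 1029 CPM without OHT and 787, 856 and 786 CPM with OHT. All libraries with OHT lay above those without it in shNT and below them in the libraries labelled shCDK12. EEF2K, the gene of the kinase that switches eEF2 off, moved in the same directions as its target. It rose 1.83-fold with OHT in shNT, from 12.8 ± 1.17 to 23.8 ± 4.68 CPM (log2 0.87, SE 0.28, edgeR adjusted p = 0.0402). At these low counts the call was lost on leaving out any of the shNT libraries, or shNT with OHT replicate 2 or 3 (adjusted p from 0.064 to 0.16) and with the replicate number as a block (0.0522). EEF2K was 2.5-fold higher in the libraries labelled shCDK12 than in shNT (log2 1.32, SE 0.20, adjusted p = 1.45e-06) and fell 1.72-fold with OHT there (log2 -0.78, SE 0.14, adjusted p = 0.000149).

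EEF1A1 encodes the factor that brings aminoacyl-tRNA to the ribosome. It stood at 1209, 1272 and 1046 CPM in shNT and at 1231, 1407 and 1461 CPM with OHT, with overlap. Under the shCDK12 label it read 1336, 1374 and 1470 CPM without OHT and 1400, 1605 and 1603 CPM with OHT. It was called higher in the libraries labelled shCDK12 than in shNT without OHT and in no other comparison. EEF1A1 has many processed pseudogenes, so that its counts depend on how shared reads were treated. Subunits of the exchange complex that reloads eEF1A with GTP are encoded by EEF1B2, EEF1D and EEF1G. EEF1B2 rose 1.73-fold with OHT in shNT, from 143 ± 10.2 to 247 ± 51.3 CPM (log2 0.79, SE 0.15, edgeR adjusted p = 0.00259), and stood at 236 ± 17.7 and 148 ± 15.2 CPM in the libraries labelled shCDK12 without and with OHT. EEF1G rose with OHT in shNT too, from 245 ± 24.5 to 361 ± 45.6 CPM, while EEF1D, at 196 ± 10.2 and 251 ± 28.1 CPM, did not pass the test (log2 0.35, adjusted p = 0.0593).

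The release factor genes were not called with OHT in shNT (0 of 2 by edgeR, with 1 higher at an unadjusted p under 0.05), where 17.9% of all genes were called. Both fell with OHT in the libraries labelled shCDK12, as did 23.7% of all genes, and 2 genes are too few to set apart from these shares. ETF1 encodes eRF1, which reads the stop codon, and stood at 230 ± 7.44 CPM in shNT, 287 ± 50.4 CPM with OHT, and 179 ± 11.1 and 152 ± 6.41 CPM in the libraries labelled shCDK12 without and with OHT. With OHT in both it was 1.88-fold lower in the libraries labelled shCDK12 (log2 -0.91, SE 0.13, edgeR adjusted p = 0.000342). GSPT1, the gene of the partner GTPase eRF3a, stood at 76.9 ± 8.40, 93.7 ± 14.6, 87.0 ± 15.2 and 57.0 ± 2.53 CPM in the same order.

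Factor genes were also counted by sequence feature, without a test. Of the 7 genes with CACGTG in the promoter window tested with OHT in shNT, 2 rose (28.6%), EIF4G1 and EEF2K. The call of EEF2K was lost when single libraries were left out. All 7 had a positive log2 fold change, with a median of 0.37. Of the 29 tested genes with a window but no CACGTG, 11 rose (37.9%) and 25 were positive, with a median of 0.30. Over all genes 9.42% rose. In the libraries labelled shCDK12, 3 of 8 genes with CACGTG fell with OHT (37.5%), namely EIF4E, EIF4G1 and EEF2K. Of those without it 13 of 29 fell (44.8%), against 23.7% of all genes. Of the 9 genes listed as having TOP mRNAs (EEF1A1, EEF1B2, EEF1D, EEF1G, EEF2, EIF3E, EIF3F, EIF3H and EIF4B), 3 rose with OHT in shNT and 2 fell with OHT in the libraries labelled shCDK12. They were EEF1B2, EEF1G and EEF2 in the former and EEF1B2 and EEF2 in the latter. As shares, 33.3% of the TOP genes rose against 9.42% of all genes, and 22.2% fell against 23.7% of all genes. Of the 11 genes with a pyrimidine start in the window, 3 rose with OHT in shNT (27.3%) and 4 fell with OHT in the libraries labelled shCDK12 (36.4%).

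Other genes of the pathway were read from a list of 38. With OHT in shNT 4 of 33 tested rose (12.1%) and 3 fell (9.09%), near the 9.42% and 8.53% of all genes. With OHT in the libraries labelled shCDK12 5 of 34 rose (14.7%) and 11 fell (32.4%), against 25.6% and 23.7% of all genes. PDCD4, whose product blocks the helicase eIF4A, fell with OHT in shNT (log2 -1.29, edgeR adjusted p = 0.0107) and rose with OHT in the libraries labelled shCDK12 (log2 0.39, adjusted p = 0.0445). PAIP2, the gene of an inhibitor of the poly(A)-binding protein, had the same pattern at -0.80 (edgeR adjusted p = 0.0295) and 0.54 (adjusted p = 0.000136) on the log2 scale. In shNT with OHT, PDCD4 had only 38, 7 and 28 counts. PAIP2 stood at 44.2, 94.9 and 48.1 CPM there, against 98.7 to 111 CPM in shNT. Calls of these other pathway genes were not followed under the alternatives. EIF4A3, the gene of the helicase of the exon junction complex, rose in shNT (log2 0.77, adjusted p = 0.00301) and fell in the libraries labelled shCDK12 (log2 -0.83, adjusted p = 2.38e-07). MLST8, the gene of a subunit shared by the mTOR complexes, had log2 fold changes of 0.89 and -0.57, and PPP1R15A, the gene of the stress-induced phosphatase subunit that reverses eIF2 phosphorylation, had 0.61 and -0.35. MKNK2, the gene of a kinase of eIF4E, was called higher in the libraries labelled shCDK12 both without OHT (log2 1.49) and with it (log2 1.28). Between the libraries labelled shCDK12 and shNT, 16 of 34 were higher and 10 lower without OHT (47.1% and 29.4%, against 31.6% and 30.9% of all genes), and 7 were higher and 6 lower with OHT (20.6% and 17.6%, against 23.3% and 23%).

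The share of all counts that fell on the factor genes gives the sum of these shifts. It was 0.957 to 0.973% in shNT and 1.104 to 1.142% with OHT, and under the shCDK12 label it was 1.055 to 1.070% without and 0.906 to 0.966% with OHT, and is weighted to the genes with most counts. The mouse RNA added to each sample was not used as a scale here, and the values say nothing of how much RNA the cells made in all. Of the 46 genes, 8 overlap another protein-coding gene of the table (EIF5B, EIF2S1, EIF2B1, EIF3A, EIF3B, EIF3G, EIF3J and EIF3M). The use of strand in counting is not given in the sources used here, and reads from both genes of such a pair may not have been told apart.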

How the data were processed

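Total RNA of cells labelled with EU was taken in 12 libraries, with 40 µg of human and 10 µg of mouse RNA mixed before capture. The authors deposited raw counts of reads per gene, by Entrez identifier, without normalization. The submitters' processing notes name STAR 2.7.5c, featureCounts 1.4.5-p1 and hg19, with no role or order, and the strand setting is not given in the sources used here. RefSeq gave symbols for 23284 of 23434 rows, and 150 stayed unnamed.

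Library totals ranged from 1251695 to 10447836 counts. Levels are TMM-scaled CPM (mean ± SD, n = 3). Counts were tested with edgeR 4.0.16 (R 4.3.3), quasi-likelihood and Benjamini-Hochberg adjustment at 0.05 over all genes with a mean normalized count above 32, in fits of the 6 libraries compared, and in a fit of all 12 for the interaction. The SE is the log2 fold change divided by the square root of F. Ratios within a library used counts plus 0.5. Alternatives were DESeq2 1.42.0, upper-quartile scaling, other filters, a replicate block, 1 fit of all libraries, thinning to the smallest total, removal of the trend in gene span, and leaving out each library.

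Folds with tests are given for up to 5 factor genes with the largest rise and 5 with the largest fall among those called in each pairwise comparison, and the interaction for every gene called. Values in every library are given for 9 set genes of the complexes and for the gene with the largest change each way. The factor genes and lists were chosen with earlier results of these data known. The scripts were tested on simulated data. EIF4A1 was not analysed here, and fold changes rest on TMM scaling.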

Additional observations from a re-analysis of the deposited data

Results flagged for a closer look

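The change upon OHT differed between the libraries labelled shCDK12 and shNT by the interaction term (edgeR, adjusted p under 0.05) for 27 factor genes, while 46% of all 11299 genes were called. The values below are log2 interactions, the change upon OHT in the libraries labelled shCDK12 minus that in shNT. For the cap-binding group the value was -1.14 for EIF4E, -0.72 for EIF4E2, -2.12 for EIF4EBP1, -0.74 for EIF4G1 and 0.90 for EIF4EBP2, the gene with a positive value. For the elongation genes it was -1.76 for EIF5A, -1.68 for EEF2K, -1.52 for EEF1B2, -0.88 for EEF2, -0.59 for EEF1G and -0.38 for EEF1D. For eIF3 it was -1.46 for EIF3J, -1.17 for EIF3B, -1.06 for EIF3D, -0.79 for EIF3I and -0.76 for EIF3G. For eIF2B it was -0.87 for EIF2B4, -0.73 for EIF2B2 and -0.64 for EIF2B5, and for eIF2 it was -0.50 for EIF2S3. For start codon selection and subunit joining it was -1.10 for EIF1AX, -0.72 for EIF6, -0.60 for EIF1, -0.48 for EIF5B and -0.34 for EIF5. For termination it was -0.96 for GSPT1 and -0.61 for ETF1.

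Of these 27 calls, 11 were lost under other alternatives in which the gene was tested. Genes with few counts, such as EEF2K, could fall under the count filter after thinning, and these were not counted as lost. Thinning to the smallest total ended those of EIF1AX (adjusted p = 0.0669), EIF5 (0.265), EIF2S3 (0.212), EIF2B2 (0.0941), EIF2B5 (0.0593), EIF3G (0.192), EEF1D (0.0926), ETF1 (0.0505) and EIF4EBP2 (0.0516), the positive one. That of EIF1 was lost with the trend in gene span removed (0.0585) and that of EIF5B without a filter on low counts (0.0735). The call of 5 of these genes was also lost when single libraries were left out. It was lost without 8 of the 12 libraries, each in turn, for EIF5 (adjusted p from 0.0516 to 0.12) and for EEF1D (0.0529 to 0.0791). It was lost without any of 5 libraries for EIF5B (0.0551 to 0.0765), of 4 for EIF1AX (0.0597 to 0.109) and of 3 for EIF2S3 (0.0569 to 0.0666). The 4 libraries for EIF1AX were shNT replicate 1, shNT with OHT replicate 2, and replicate 2 labelled shCDK12 and replicate 3 labelled shCDK12 with OHT. Groups of 3 libraries are too small for the test of single outlying libraries, and every column of the table was used above.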

How the results depend on the processing

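Thinning all libraries to the smallest total left 0 factor genes higher with OHT in the libraries labelled shCDK12, and 17 lower for the interaction. Over all genes, 1619 of the 7436 tested were higher in the former and 1580 of the 7444 tested were lower in the latter. The fit of all 12 libraries called 21 factor genes higher and 1 lower with OHT in shNT, and 3265 of all genes against 1793. In that fit 15.4% of all 11299 genes tested were higher and 13.5% lower. Thinning called 3187, 4471, 3139 and 3185 of all genes with OHT in the libraries labelled shCDK12, for them against shNT without and with OHT, and for the interaction, against 6117, 7146, 5144 and 5203, over fewer genes tested. Without a filter on low counts the median log2 of all genes was 0.21 for shCDK12 against shNT with OHT, 0.12 without OHT and 0.12 for the interaction, and calls of factor genes stayed within 1.5 times.

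Leaving out each library, factor genes higher and lower ranged from 5 to 20 and 0 to 1 with OHT in shNT, 2 to 2 and 16 to 24 with OHT in the libraries labelled shCDK12, 20 to 21 and 9 to 10 for shCDK12 against shNT, 1 to 4 and 20 to 27 with OHT, and 1 to 2 and 22 to 27 for the interaction. Over all genes, higher calls ranged from 370 to 1320 and lower ones from 273 to 1260 with OHT in shNT. With OHT in the libraries labelled shCDK12 they were 2550 to 3320 and 2420 to 3140. For shCDK12 against shNT without OHT they were 3220 to 3560 and 3130 to 3470. They were 1720 to 3070 and 1750 to 3000 with OHT in both, and 2330 to 2960 and 2240 to 2780 for the interaction. Log2 ratio differences changed sign for EIF4G3 to EIF4G1 with OHT in shNT (-0.34 to 0.0493) and for shCDK12 against shNT with OHT (-0.0555 to 0.26), for EIF4E2 to EIF4E in the same comparisons (-0.29 to 0.23 and -0.27 to 0.24), and for EIF2S2 to EIF2S1 in shCDK12 against shNT without (-0.16 to 0.10) and with OHT (-0.31 to 0.0403). CDK12 in shCDK12 against shNT ranged from -0.10 to 0.0135, and was 0.0244 with the trend in gene span removed (adjusted p = 0.819). The cause was not tested.

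The labels give no shared origin of same-numbered libraries, so they were not taken as pairs. Deviations from group means correlated over 0.1 in 3 of 18 same-numbered pairs (-0.10 to 0.33) and 0 of 36 others (-0.36 to 0.09). For each gene the deviations of the 3 libraries of a group sum to 0, so the other pairs are no independent background. The largest values, 0.29 and 0.33, were between libraries labelled shCDK12 and shNT with OHT, groups not compared directly here. With the replicate block, 14 factor genes rose and 0 fell with OHT in shNT, 2 and 20 in the libraries labelled shCDK12, 20 and 11 for shCDK12 against shNT, 2 and 22 with OHT, and 1 and 26 for the interaction. Over all genes the block called 859 higher and 851 lower, 3209 and 2958, 3691 and 3627, 2446 and 2235, and 2760 and 2553 in the same order. The genes tested numbered 9994, 12389, 11444, 11120 and 11299. Of the genes given with a test, the block changed the call of EEF2K (edgeR adjusted p = 0.0522). Of 56 such values 40 kept their call under every alternative in which the gene was tested, and 0 reversed. A gene under the count filter in an alternative was not counted as lost, as EIF4G3 after thinning with OHT in the libraries labelled shCDK12. Depth in shNT limits genes such as EEF2K and EIF2B3.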
